A study of Rattus norvegicus with 4 samples.

Results

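The extracellular matrix is the network of secreted proteins that surrounds cells, and epithelial cells rest on a specialised sheet of it, the basement membrane. Collagens are its main structural proteins: 3 chains wind around each other into a triple helix, and the chains of one helix are often products of different genes. Around the collagens lie glycoproteins that bind cells or tune their adhesion, matrix metalloproteinases (MMPs) and ADAMTS proteases that cut matrix proteins, and the TIMPs, secreted inhibitors of these enzymes. The genes described here were chosen by symbol: the collagens other than Col17a1, the fibulins and related Efemp genes, lysyl oxidases, thrombospondins, TIMPs, MMPs and ADAMTS genes, with Fn1, Sparc, Dcn, Lum, Bgn, Fbn1, Postn, Tnc, Spp1, Ecm1, Ccdc80 and Vim. The rule used no measured value, but the genes were chosen with earlier results of these data known. It found 69 of the 10411 genes with a probe set of their own, measured by 91 probe sets, of which 29 genes encode collagen chains.

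Expression was measured in RTEC11, a single conditionally immortalised line of rat tracheal epithelial cells. All samples carry a large T antigen of simian virus 40 in a temperature-sensitive form, inherited from the transgenic rats that gave the line. This viral protein keeps cells dividing by binding the tumour suppressors p53 and Rb. The sources used here do not give the promoter of the transgene. One group was kept for 3 days at 33 °C, the permissive temperature, and the other for 3 days at 39 °C, the nonpermissive temperature, at which such antigens lose their function, with 2 arrays each. Temperature and loss of the antigen cannot be told apart in this design. The labels do not say that the replicates came from separate cultures, so p-values reflect the spread of these arrays alone, and that spread may be technical.

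Intensities given per array are the deposited ones, in the order replicate 1, replicate 2. Log2 levels and log2 changes are those of log2(intensity + 16) after quantile normalization, 39 °C minus 33 °C, with the SE of the fit. A gene was tested if its mean level lay at or above 6.60 (an intensity of 81.1), the 40th percentile of all probe sets, and is otherwise called dim. A tested gene was called if its adjusted p was under 0.05 (limma, Benjamini-Hochberg over all 7016 genes tested). Markers of epithelial cells were present: Epcam, Krt7, Krt8, Krt14, Krt18 and Krt19 had mean levels between 12.48 and 13.97 at both temperatures. Mean levels at 33 °C and 39 °C were 12.44 and 12.53 for Cdh1, 10.92 and 11.79 for Cldn4, and 8.24 and 9.94 for Elf3, while Krt5 was dim. Of the 9 epithelial markers tested, 5 were called higher at 39 °C and 2 lower, against 23.1% and 26.1% of all genes tested. In bulk RNA, fewer cells of a type and less RNA per cell cannot be told apart.

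Of the 69 matrix genes, 26 were tested and 43 were dim. Among the 26, 17 were called higher at 39 °C and 1, Timp1, was called lower, while of all genes tested 23.1% were called higher, 26.1% lower and 49.1% in either direction. The median log2 change was 0.74 over the 26 matrix genes and -0.04 over all genes tested. At least 2-fold rises were called in 6 of the 26, against 6.16% of all genes tested, and an at least 2-fold fall in 1, against 4.73%. The 2 groups of arrays did not overlap in 23 of the 26 genes: both 39 °C arrays were higher in 18 (background 35.0%) and lower in 5 (background 40.0%). Col3a1, Col5a2, Mmp16 and Timp3 had a mean under the limit at 33 °C, so they were tested only because of their level at 39 °C. The median of 0.74 and the 18 genes with both 39 °C arrays higher include all of them. Col3a1 and Col5a2 are also among the 6 with at least 2-fold rises, so these figures are raised by the filter. Of the other 22 genes, 14 were called higher and 1 lower. Without the filter on dim genes, 18 of 69 were called higher and 1 lower, against 14.4% and 15.6% of the 10411 genes. The split between rises and falls depended on the scaling of the arrays: 17 higher and 1 lower on the deposited scale, 16 and 5 after median centring, and 12 and 5 after scaling to the poly-A spike-in controls. All genes tested had median log2 changes of 0.02, -0.13 and -0.36 under these scalings. Of the 7015 genes tested in each, 26.0% were called higher and 23.7% lower on the deposited scale, 19.2% and 33.1% after median centring, and 11.4% and 47.9% with the spike-in controls. Under all 3 the matrix genes had a larger share called higher than this background and a smaller share called lower. These shares include Col3a1, Col5a2, Mmp16 and Timp3, which passed the filter only through their level at 39 °C. Both comparisons are thus favoured by the filter, and shares without these genes are not given for these scalings.

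**Figure D1:**
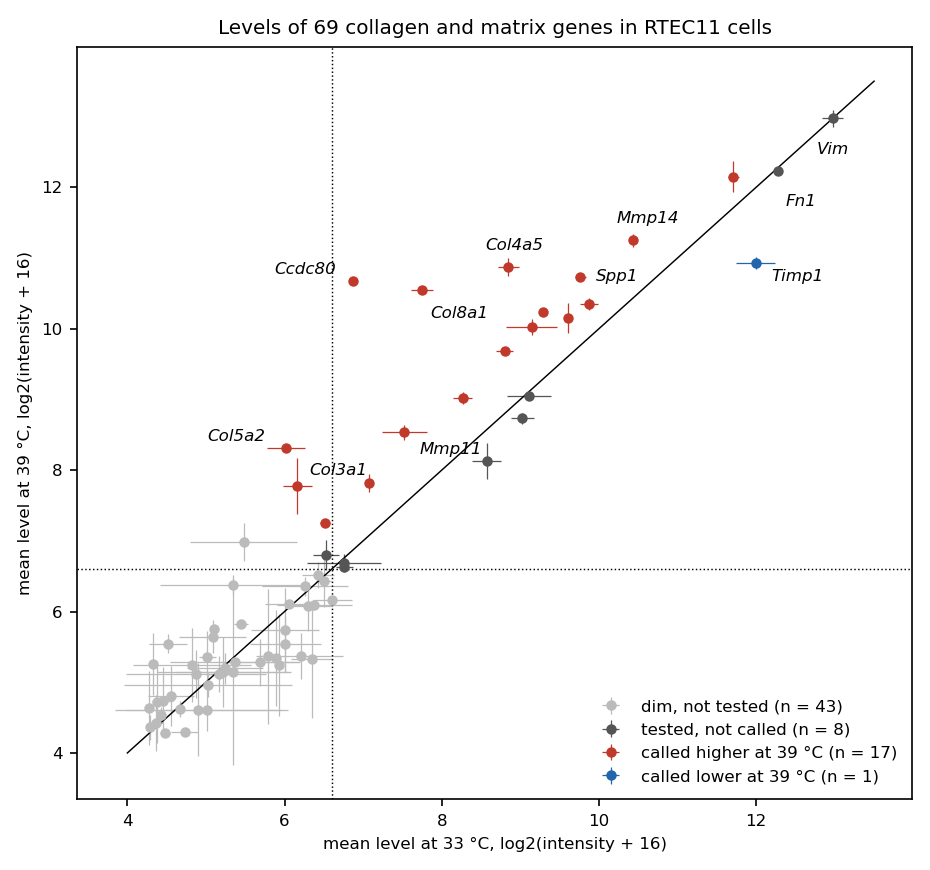
Mean log2(intensity + 16) at 33 °C (x axis) and 39 °C (y axis) of the 69 matrix genes; bars are the SD of 2 arrays per group, the dotted lines mark the dim limit of 6.60 and the diagonal marks equal levels. The 17 genes called higher (red) lie above the diagonal, Timp1 (blue) lies below it, and the 43 dim genes (light grey) lie towards the lower left corner.

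Collagens gave the largest rises after Ccdc80. Of 29 collagen genes 9 were tested, 6 were called higher (Col8a1, Col5a2, Col4a5, Col3a1, Col4a1 and Col18a1) and none lower. The shares over all genes tested were 23.1% higher and 26.1% lower. Col5a2 and Col3a1 were tested only because of their level at 39 °C. Both lysyl oxidases with a probe set, Lox and Loxl1, which cross-link collagen and elastin, were dim. Under median centring or spike-in scaling, Col4a2 and Col5a1 were called lower, and with spike-in scaling the Col18a1 call was lost (0.13). Over all genes, 19.2% were called higher and 33.1% lower after median centring, and 11.4% and 47.9% with spike-in scaling.

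Col8a1, which encodes a short-chain collagen that forms open networks, had intensities of 174.0 and 204.0 at 33 °C and 1520 and 1449 at 39 °C. Both 39 °C arrays were thus far above both 33 °C arrays, a 6.98-fold rise (log2 change 2.80 ± 0.13, adjusted p 5.12e-08 by limma). It ranked 25 from the top among the 7016 log2 changes. Its partner gene Col8a2 was dim.

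Collagen IV is the network-forming collagen of basement membranes. Its chains assemble in fixed combinations, the widespread one from the products of Col4a1 and Col4a2, and others that include the product of Col4a5. Col4a5 rose 4.06-fold, from 396.0 and 463.8 to 1949 and 1746, and its groups did not overlap (log2 change 2.02 ± 0.12, adjusted p 3.55e-07 by limma). Col4a1 rose 1.92-fold by the probe set used, from 609.2 and 584.2 to 1220 and 1167, again with no overlap (0.94 ± 0.11, adjusted p 3.43e-05 by limma). The second Col4a1 probe set did not show this rise: it read 694.0 and 576.6 at 33 °C and 757.4 and 684.2 at 39 °C, with overlapping groups and a log2 change of 0.13 ± 0.13. Col4a2 read 527.0 and 454.4 at 33 °C and 440.7 and 407.3 at 39 °C. Both 39 °C values were the lower ones, but the change of -0.29 ± 0.14 was not called (95% interval -0.59 to 0.01, adjusted p 0.096 by limma). Col4a4 was dim.

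Col4a1 and Col4a2 lie head to head in the rat genome and are transcribed away from each other. The stretch between their starts thus lies directly upstream of both genes and is shown here. In the RefSeq annotation of GRCr8 the starts are separated by 76 bases (chr16:84885521-84885596), given here on the + strand, the strand of Col4a1:
Col4a1-Col4a2: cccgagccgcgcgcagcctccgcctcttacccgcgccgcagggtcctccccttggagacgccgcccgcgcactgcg
Neither the AP-1 motif TGANTCA nor TATAAA was found in the promoter window of either gene, from 250 bases before to 50 after the start. The log2 difference between Col4a1 and Col4a2 within an array is the same under any shift of whole arrays. On the deposited scale it went from 0.20 and 0.35 at 33 °C to 1.44 and 1.48 at 39 °C with the probe set used, a change of 1.18. With the second Col4a1 probe set it went from 0.39 and 0.33 to 0.76 and 0.73, a change of 0.38. By both probe sets the difference was larger on both 39 °C arrays, by an amount that depended on the probe set. Such non-overlap is common with 2 arrays a group. Among single genes tested, 35.0% had both 39 °C arrays above and 40.0% below. Whether the 2 genes changed unequally was not tested. With 2 arrays a group an exact permutation test cannot give a p under 0.333, so none is given for these pairs, which were chosen after their values were seen.

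**Figure D2:**
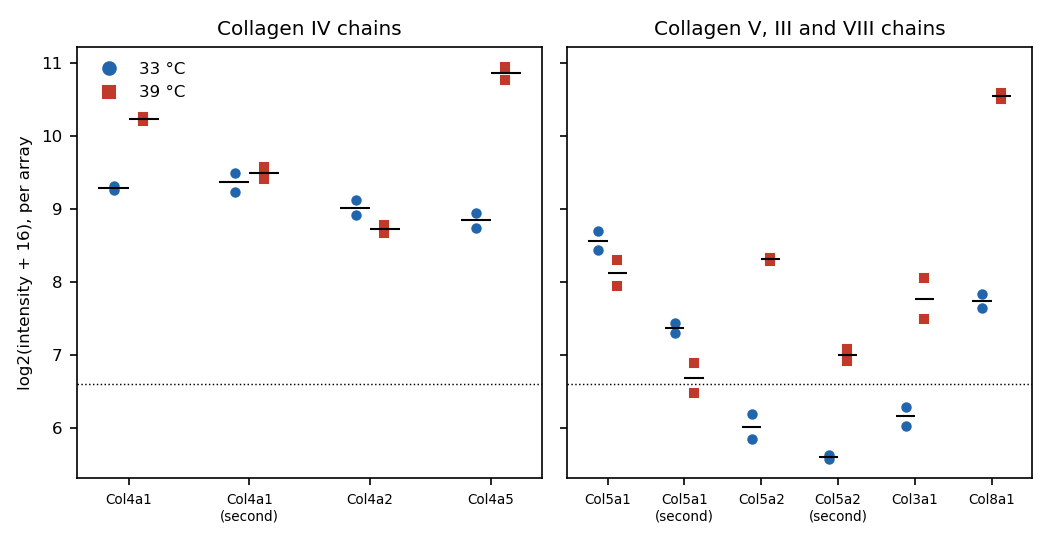
Log2(intensity + 16) per array (y axis) for collagen chains (x axis), with blue circles for the 2 arrays at 33 °C, red squares for the 2 arrays at 39 °C, short bars for group means, and a dotted line at the dim limit; "second" marks a further probe set of the gene. Col4a5, Col5a2, Col3a1 and Col8a1 are higher at 39 °C, Col4a2 and both Col5a1 probe sets lie lower, and the Col4a1 probe sets differ in their change.

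Fibrillar collagens form the cable-like fibres of connective tissue. Type I collagen, the main one of connective tissue, was not detected as more than dim: Col1a1 read 82.9 and 48.4 at 33 °C and 61.9 and 47.8 at 39 °C, and its second probe set had no value above 17.7. Col1a2 had no value above 29.1 in either of its probe sets. Of the 10 fibrillar collagen genes, 3 were tested. Col5a2, a chain of type V collagen, which is incorporated into fibres of other types, rose 4.90-fold from 54.2 and 40.6 to 318.7 and 310.2 (2.29 ± 0.23, adjusted p 1.22e-05 by limma). Its second probe set, dim by its mean, read 29.9 and 32.3 at 33 °C and 132.0 and 107.9 at 39 °C, a log2 difference of 1.39. Col3a1, the chain of type III collagen, rose 3.06-fold from 59.1 and 47.9 to 263.5 and 172.8 (1.61 ± 0.27, adjusted p 0.000447 by limma). The 39 °C arrays of Col3a1 differed from each other more than those of Col5a2. Both genes were under the dim limit at 33 °C, so their fold changes depend on the 16 added to each intensity. Col3a1 and Col5a2 are next to each other on chromosome 9, with 0 protein-coding genes between them in RefSeq.

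Col5a1 encodes the chain of type V collagen that pairs with the product of Col5a2, and it was not called. It read 382.5 and 321.3 at 33 °C and 313.6 and 244.4 at 39 °C, without overlap, and its change of -0.44 ± 0.17 lay at the threshold (adjusted p 0.0508 by limma). The change was called without permissive replicate 2 (-0.56) and without nonpermissive replicate 1 (-0.62). The second Col5a1 probe set went from 147.3 and 135.0 to 82.8 and 105.2, a log2 change of -0.68 ± 0.24 that was called when every probe set was fitted as a feature of its own (adjusted p 0.0363 by limma). Within arrays, the log2 difference of Col5a2 over Col5a1 rose from -2.51 and -2.58 to 0.02 and 0.33, and with the second probe sets from -1.83 and -1.64 to 0.58 and 0.03. The change in this difference was 2.71 and 2.05 on the log2 scale, with no overlap between the groups in either. Both Col5a2 probe sets were under the dim limit at 33 °C, so the size of these changes depends on the 16 added to each intensity. The pair was chosen after its values were seen, and its genes already lay apart in opposite directions. The lack of overlap in their difference is therefore no further result, and whether the 2 genes changed unequally was not tested.

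Col18a1, a basement membrane collagen whose end fragment is endostatin, went from 960.2 and 855.2 to 1241 and 1354, a 1.40-fold rise without overlap (0.48 ± 0.11, adjusted p 0.00366 by limma). Its second probe set changed by 0.41 ± 0.15. Col12a1, a collagen that coats fibres, changed by -0.13 ± 0.26, or 0.015 on the deposited scale, and was not called. The other 10 of the 12 remaining collagen genes were dim. These include Col7a1, the collagen of the fibrils that anchor epithelial basement membranes, which read 72.4 and 53.4 at 33 °C and 12.5 and 42.0 at 39 °C. All 3 Col6 genes were dim as well.

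The glycoproteins and proteoglycans comprised 16 genes, of which 6 were tested, 4 were called higher and none lower. All genes tested had 23.1% called higher and 26.1% lower. The 4 are Ccdc80, Spp1, Sparc and Ecm1. Under spike-in scaling the call of Ecm1 was lost (0.18), and Fn1 was called lower there and with median centring. The shares over all genes were 11.4% higher and 47.9% lower with spike-in scaling, and 19.2% and 33.1% with median centring. Ccdc80, a secreted protein that associates with the matrix, had the largest change of all matrix genes. It read 94.0 and 96.0 at 33 °C, just above the dim limit, and 1559 and 1656 at 39 °C, a 13.9-fold rise that ranked 8 among all genes tested (3.80 ± 0.13, adjusted p 9.40e-09 by limma). The replicates lay close together at both temperatures.

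Spp1 (osteopontin), a secreted phosphoprotein that binds integrins, rose 1.96-fold from 869.8 and 808.5 to 1696 and 1638 (0.97 ± 0.10, adjusted p 1.98e-05 by limma). Sparc, a matricellular protein that binds collagen, rose 1.83-fold from 635.6 and 452.9 to 972.6 and 1092 (0.87 ± 0.15, adjusted p 0.0006 by limma). The second Sparc probe set, with 304.8 and 331.8 at 33 °C and 698.7 and 684.5 at 39 °C, gave 1.01 ± 0.13, so both probe sets rose by a like amount with no overlap. Ecm1, a secreted glycoprotein of skin and other epithelia, read 780.7 and 734.3 at 33 °C and 1246 and 1022 at 39 °C (0.54 ± 0.12, adjusted p 0.00363 by limma). Its call was lost without nonpermissive replicate 1 (0.40). Ecm1 lies next to Adamtsl4, described below, on chromosome 2.

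Fn1 encodes fibronectin, the glycoprotein that links integrins to collagen. Its intensities of 5141 and 5100 at 33 °C and 4503 and 4778 at 39 °C were high on every array, and its change was not called (-0.05 ± 0.08, 95% interval -0.23 to 0.13). Both 39 °C arrays were below both 33 °C arrays, and the change was called with median centring (-0.29) and with spike-in scaling (-0.52). Fbln1, a fibulin that binds fibronectin and basement membrane proteins, changed by -0.06 ± 0.15 with overlapping groups, and the sign turned on the deposited scale (0.02). The other 4 genes of the fibulin and fibrillin group (Fbln2, Fbln5, Efemp1 and Fbn1), the small leucine-rich proteoglycans Dcn, Lum and Bgn, the thrombospondin Thbs4, Postn and Tnc were dim. Thbs1 has no probe set of its own in the annotation used. Vim, the intermediate filament protein of mesenchymal cells that cultured epithelial cells often make as well, is no matrix protein but belongs to the rule. It read 7875 and 8911 at 33 °C and 7283 and 8199 at 39 °C, with overlapping groups and a change of -0.0012 ± 0.09 (95% interval -0.21 to 0.20). Its change was called at -0.26 with median centring and at -0.50 with spike-in scaling.

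**Figure D3:**
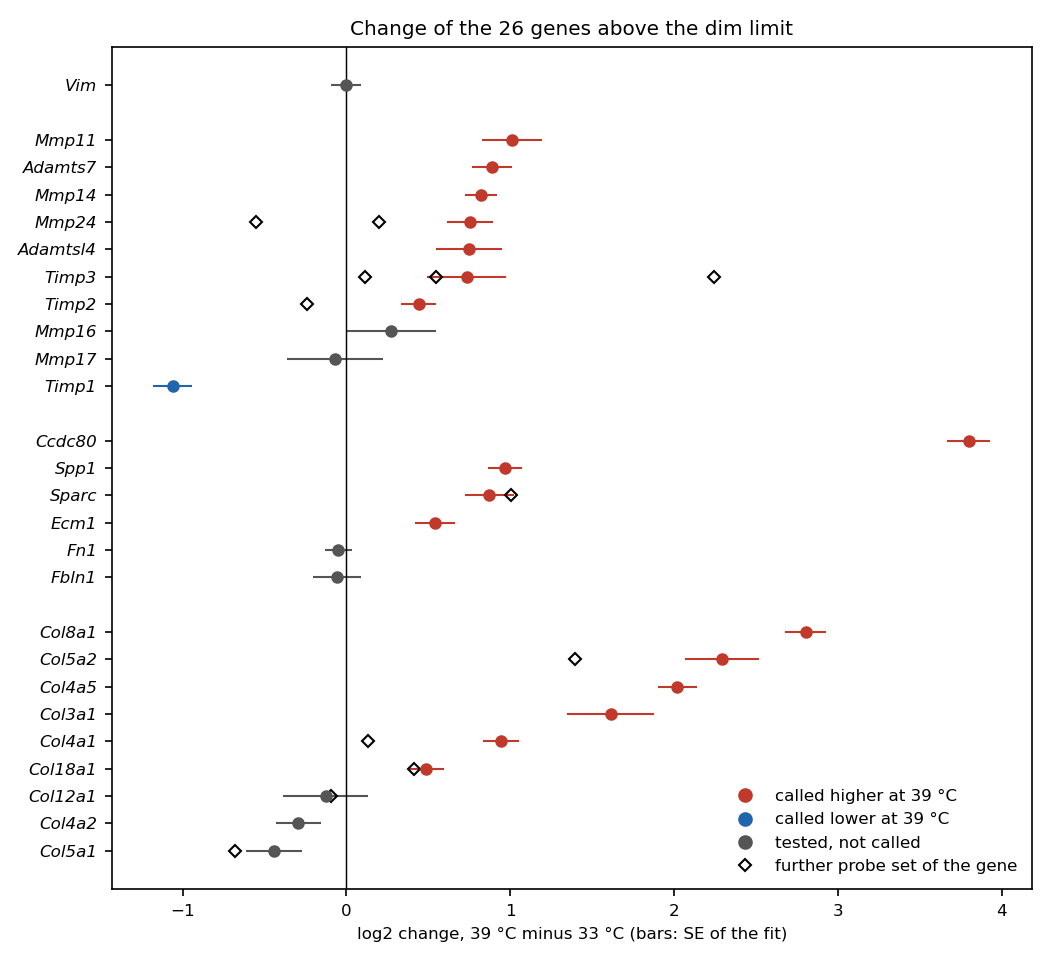
Log2 change at 39 °C minus 33 °C (x axis) of the 26 tested matrix genes (y axis, grouped as Vim, proteases and inhibitors, glycoproteins, and collagens from top to bottom); points and bars are the change and the SE of the fit over 2 arrays a group, and open diamonds are further probe sets of the same gene. Ccdc80 at 3.80 and Timp1 at -1.06 mark the ends, and further probe sets of Mmp24 and Timp2 lie on the other side of 0.

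Among the matrix proteases, 5 of 14 MMP genes and 2 of 4 ADAMTS genes were tested. Of these 7, 5 were called higher (Mmp11, Mmp14, Mmp24, Adamts7 and Adamtsl4) and none lower. Over all genes tested the shares were 23.1% and 26.1%. Mmp14 encodes the membrane-bound MT1-MMP, which cuts collagen at the cell surface and activates pro-MMP2. It rose 1.77-fold from 1341 and 1379 to 2253 and 2498 (0.82 ± 0.10, adjusted p 4.13e-05 by limma). Mmp2 itself was dim in both of its probe sets. Mmp11 (stromelysin-3), a secreted protease that is activated inside the cell by furin, rose 2.01-fold from 134.7 and 185.9 to 348.7 and 387.8 (1.01 ± 0.18, adjusted p 0.000845 by limma). Neither gene had overlapping groups.

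Mmp24, a membrane-type MMP, gave 3 answers. The brightest probe set rose from 259.8 and 299.4 to 493.2 and 541.6 (0.75 ± 0.14, adjusted p 0.00103 by limma). A further one went from 179.2 and 176.6 to 243.7 and 216.8 (0.20 ± 0.17), and the dimmest from 152.0 and 111.7 to 80.9 and 113.1 (-0.55 ± 0.27), neither of them called. With the mean of the 3 probe sets the change was 0.13 and was not called, so the Mmp24 call rests on 1 probe set. The membrane-type genes Mmp16 (0.27 ± 0.27) and Mmp17 (-0.07 ± 0.29), both close to the dim limit, were not called, and the change of Mmp17 was 0.070 on the deposited scale.

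Adamts7, a secreted metalloprotease that cuts the cartilage protein Comp, rose 1.85-fold from 436.7 and 393.2 to 799.3 and 839.0 (0.89 ± 0.12, adjusted p 0.000125 by limma). Adamtsl4 lacks the protease domain and binds fibrillin fibres. It read 108.1 and 114.5 at 33 °C and 206.2 and 237.4 at 39 °C (0.75 ± 0.20, adjusted p 0.00875 by limma), and its call was lost without nonpermissive replicate 2 (0.64) and with spike-in scaling (0.52, adjusted p 0.0519 by limma). Adamts1, which cuts the proteoglycans aggrecan and versican, was dim by its mean. It read 14.6 and 44.9 at 33 °C and 139.3 and 97.4 at 39 °C, and without the dim filter it was called higher (1.50 ± 0.39, adjusted p 0.0247 by limma).

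The 9 dim MMP genes include the secreted collagenases, stromelysins and gelatinases often studied in inflamed airways. None of the 4 arrays gave more than 47.8 for Mmp12 (macrophage elastase), 46.4 for Mmp3 (stromelysin-1), 38.4 for Mmp13 (collagenase-3), 11.7 for Mmp7 (matrilysin) or 10.2 for Mmp10 (stromelysin-2). For Mmp9 (gelatinase B), the brighter probe set read 35.4 and 3.3 at 33 °C and 5.8 and 12.7 at 39 °C. Mmp3, Mmp7, Mmp8, Mmp10, Mmp12 and Mmp13 all lie on chromosome 8. The promoters of 5 of them are shown because they share a layout of 2 motifs. The 100 bases before the RefSeq start (GRCr8) are given 5′ to 3′ on the strand of the gene, with matches to TGANTCA, the letters bound by AP-1 factors, and to TATAAA in capitals. Mmp3 lies at chr8:12925181-12925280, Mmp7 at chr8:13132943-13133042, Mmp10 at chr8:12974607-12974706, Mmp12 at chr8:12866552-12866651 and Mmp13 at chr8:12782729-12782828, all on the + strand:
Mmp3: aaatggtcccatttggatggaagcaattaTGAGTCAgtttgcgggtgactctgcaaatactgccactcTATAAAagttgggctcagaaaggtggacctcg
Mmp7: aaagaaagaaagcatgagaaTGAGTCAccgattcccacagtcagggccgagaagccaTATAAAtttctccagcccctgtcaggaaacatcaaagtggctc
Mmp10: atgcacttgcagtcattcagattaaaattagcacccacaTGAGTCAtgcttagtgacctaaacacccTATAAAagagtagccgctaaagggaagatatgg
Mmp12: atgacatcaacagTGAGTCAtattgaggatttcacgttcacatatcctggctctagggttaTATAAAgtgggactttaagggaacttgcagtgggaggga
Mmp13: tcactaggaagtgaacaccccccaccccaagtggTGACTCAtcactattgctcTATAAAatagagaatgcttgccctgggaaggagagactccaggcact
In all 5 the TGANTCA match begins 61 to 87 bases before the start and a TATAAA match 32 to 47 bases before it. For comparison, the same stretch is given for Mmp11 (chr20:12730184-12730283, + strand) and Mmp24 (chr3:164739126-164739225, + strand), the tested MMP genes with an entry in the promoter table, and for Ecm1 (chr2:185981607-185981706, - strand), the tested matrix gene with both motifs:
Mmp11: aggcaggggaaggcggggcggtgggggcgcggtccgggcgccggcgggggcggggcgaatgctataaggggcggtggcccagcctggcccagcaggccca
Mmp24: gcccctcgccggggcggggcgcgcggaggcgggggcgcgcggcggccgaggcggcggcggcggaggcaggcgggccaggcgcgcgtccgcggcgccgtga
Ecm1: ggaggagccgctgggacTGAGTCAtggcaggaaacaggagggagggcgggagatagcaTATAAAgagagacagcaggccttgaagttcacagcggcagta

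Over the whole promoter window and both strands, TGANTCA was found in 8 and TATAAA in 15 of the 53 matrix genes with a promoter entry, and both in 6. Of all 33469 promoters in the table, 7.33% hold TGANTCA, 14.2% hold TATAAA and 1.36% hold both. TGANTCA reads the same on both strands, and no match to it overlapped one to TATAAA. Of the 7 dim MMP genes with an entry 5 hold both motifs, and Mmp8 holds TATAAA on the opposite strand. Mmp8 and these 5 are neighbours on chromosome 8, with at most 2 protein-coding genes between one and the next. Their promoters may therefore not be independent cases. Whether the motifs are related to the low levels was not tested. Mmp11 and Mmp24 hold neither, and of the 44 other matrix genes with an entry Ecm1 alone holds both. Among the 16 called genes with an entry, 1 holds TGANTCA and 3 hold TATAAA. A match describes the letters of the window and does not show that a factor binds there. Entries were missing for Bgn, Col12a1, Col14a1, Col1a1, Col2a1, Col3a1, Col6a2, Dcn, Fbln1, Fn1, Lox, Mmp14, Mmp16, Mmp17, Mmp2 and Mmp9.

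The TIMPs changed in different directions. Timp1, the inducible inhibitor of many MMPs, fell: it read 3743 and 4783 at 33 °C and 1847 and 2009 at 39 °C. Both 39 °C arrays were below both 33 °C arrays, a level 2.09-fold lower (-1.06 ± 0.12, adjusted p 2.49e-05 by limma). The fall was called under all 15 alternatives. Timp2, which inhibits MMPs and also takes part in the activation of pro-MMP2 by MT1-MMP, read 3582 and 3326 at 33 °C and 3892 and 4938 at 39 °C (0.44 ± 0.11, adjusted p 0.00575 by limma). Its call was lost without nonpermissive replicate 2 (0.28), under median centring (0.19) and with the mean of its probe sets (0.099), and its sign turned under spike-in scaling (-0.037). The second Timp2 probe set read 275.1 and 282.7 at 33 °C and 240.7 and 271.1 at 39 °C, a change of -0.24 ± 0.16 that was not called. Timp2 thus has no settled direction on these arrays.

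Timp3, an inhibitor that stays bound to the matrix and also acts on ADAMTS proteases, has 4 probe sets. The brightest went from 69.0 and 74.1 to 148.5 and 141.9 (0.74 ± 0.24, adjusted p 0.0253 by limma). That call was lost without the dim filter (adjusted p 0.0638 by limma), with spike-in scaling (0.50), and without permissive replicate 1 (0.70), nonpermissive replicate 1 (0.74) or nonpermissive replicate 2 (0.72). The log2 change stayed within 0.70 to 0.78 when any 1 array was left out. The other 3 probe sets were dim by their means. One of them read 17.9 and 6.3 at 33 °C and 120.8 and 131.4 at 39 °C, a log2 difference of 2.24, and the other two had differences of 0.55 and 0.12. All 4 were thus higher on average at 39 °C, by amounts from 0.12 to 2.24. Within arrays on the deposited scale, Mmp14 gained on Timp1, from -1.47 and -1.78 at 33 °C to 0.28 and 0.31 at 39 °C. The used Timp2 probe set likewise went from -0.06 and -0.52 to 1.07 and 1.29 relative to Timp1. These changes of 1.92 and 1.47 do not depend on a shift of whole arrays, and neither pair had overlapping groups. The pairs were chosen after their values were seen, from genes that already lay apart in opposite directions. Their lack of overlap is therefore no further result. Among single genes tested, 35.0% had both 39 °C arrays above and 40.0% below. The second Timp2 probe set was not set against Timp1, and whether the genes of a pair changed unequally was not tested.

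**Figure D4:**
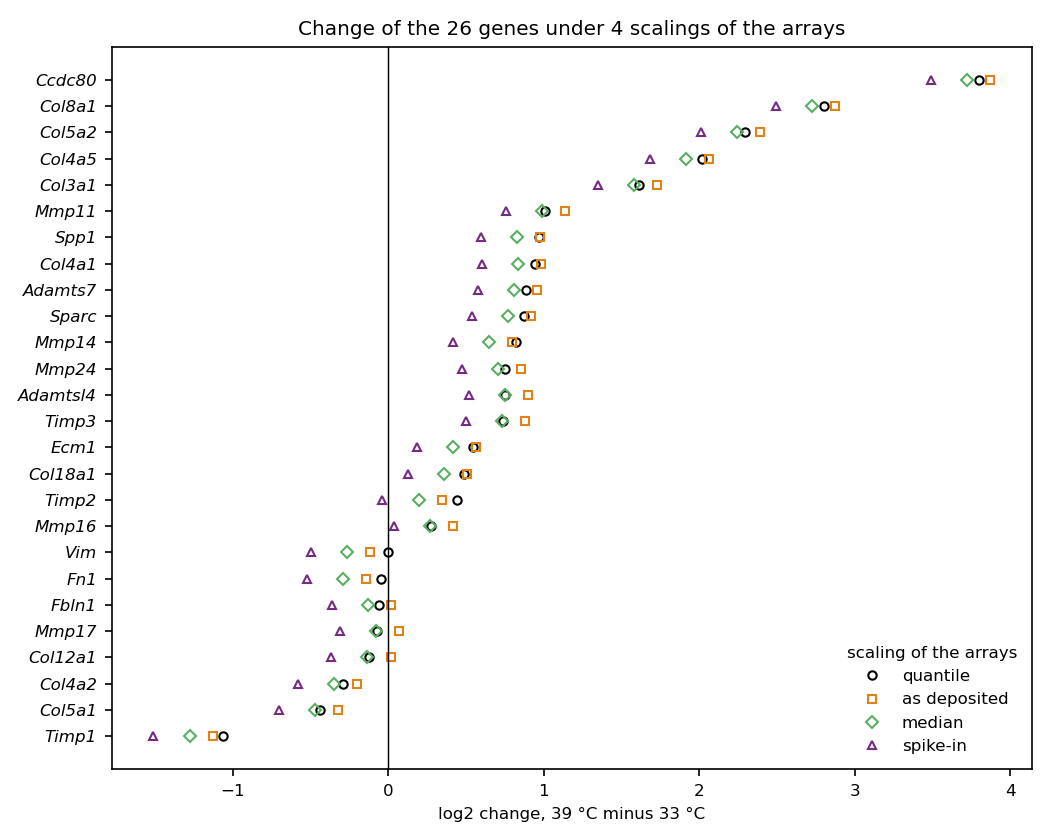
Log2 change at 39 °C minus 33 °C (x axis) of the 26 tested matrix genes (y axis, in the order of their change after quantile normalization) with 4 ways of scaling the arrays, each of 2 arrays a group. Spike-in scaling (triangles) lies to the left for every gene, from 3.49 for Ccdc80 to -1.51 for Timp1, and Timp2 crosses 0, as Fbln1, Mmp17 and Col12a1 do on the deposited scale.

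Probe sets were also fitted as features of their own, an alternative chosen after seeing the data. Of the 91 probe sets of matrix genes, 33 were above the dim limit, and 19 of these were called higher and 2 lower, against 22.5% and 24.7% of the 9520 probe sets in that fit. The 2 called lower are that of Timp1 and the second one of Col5a1. Of the 18 called genes, 12 kept their call under every alternative: Ccdc80, Spp1, Sparc, Col8a1, Col5a2, Col4a5, Col3a1, Col4a1, Mmp11, Mmp14, Adamts7 and Timp1, where Col3a1, Col5a2 and Mmp11 were not tested under the stricter dim filter.

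The dim genes were those with a mean level over all arrays under the limit: in 37 of 43, no array reached the limit. The exceptions, with at least 1 array at or above it, were Adamts1, Col1a1, Fbln2, Mmp2, Mmp23 and Col15a1. Only Adamts1 and Col2a1 were called when the filter was dropped, both higher. Col2a1, the cartilage collagen, read 4.2 and 9.0 at 33 °C and 32.3 and 32.5 at 39 °C, all low intensities. Bgn (biglycan) had 9.1 and 46.8 at 33 °C and 69.0 and 72.0 at 39 °C and was not called. Dim genes with 2 probe sets of opposite sign were Col11a1, Col14a1, Col1a2, Col6a2, Lox and Mmp9, with no intensity above 61.1. The further dim genes were Col4a4, Col5a3, Col6a1, Col6a3, Col8a2, Col9a1, Col9a2, Col10a1, Col11a2, Col19a1, Col26a1, Col27a1 and Adamts9, with Mmp8 and Mmp10 of the MMPs.

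Other genes of the pathway, from lists chosen by function, moved in mixed directions. Of 12 tested genes that modify, fold or export collagen, 5 were called higher and 4 lower (median log2 change 0.03), against 23.1% and 26.1% of all genes tested. With spike-in scaling these counts were 2 and 4, against 11.4% and 47.9% of all genes, so they are no result about this list. Serpinh1 (Hsp47), a heat shock protein that is the collagen-specific chaperone of the endoplasmic reticulum, rose most, from 1571 and 1479 to 3454 and 3656 (1.28 ± 0.09, adjusted p 1.15e-06 by limma). P4ha1, a catalytic subunit of prolyl 4-hydroxylase, rose by 0.85 ± 0.15, and Plod3, a lysyl hydroxylase, by 0.54 ± 0.12, a call that was lost with spike-in scaling (0.21). The largest falls were those of P3h1, a prolyl 3-hydroxylase (-0.83 ± 0.18), Mia3 (TANGO1), which loads collagen into transport vesicles (-0.54 ± 0.12), and Pcolce, an enhancer of procollagen cleavage (-0.38 ± 0.11). Leaving out permissive replicate 2, or nonpermissive replicate 2, removed the Pcolce call, and its change was between -0.43 and -0.32 whichever array was left out.

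Of 12 further matrix proteins tested, 5 were called higher and 1 lower (median 0.01), and with spike-in scaling 2 were higher and 5 lower, near the shares over all genes of 11.4% and 47.9%. Without that scaling the shares over all genes were 23.1% and 26.1%. The latent TGF-beta binding proteins Ltbp1 (1.37 ± 0.09) and Ltbp3 (0.96 ± 0.12) rose most, followed by the milk fat globule protein Mfge8 (0.66 ± 0.09, not called with spike-in scaling at 0.23). Ccn1 (Cyr61), a matricellular protein, fell by 0.53 on the log2 scale (SE 0.14). Of 8 tested receptors for collagen and other matrix proteins, 5 were called higher and 1 lower, beside 23.1% and 26.1% of all genes tested. With spike-in scaling 1 was higher and 2 were lower, beside 11.4% and 47.9%, so these counts are no result about the receptors. The collagen receptor kinase Ddr1 rose by 0.74 ± 0.11, the scavenger receptor Lrp1, which takes up matrix proteases, by 0.67 ± 0.20, and the syndecan Sdc4 by 0.66 ± 0.09. The calls of Lrp1 (0.43) and Sdc4 (0.19) were lost with spike-in scaling, and that of Lrp1 also without nonpermissive replicate 2 (0.54 to 0.80 over all arrays left out). Cd44, a receptor for hyaluronan, was lower (-0.40 ± 0.10).

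Markers of other cells that can make matrix were checked in the same arrays. Of 14 fibroblast and smooth muscle markers 3 were above the dim limit: Des was called higher (0.83 ± 0.27), and Pdpn and Acta2 were not called. The Des call was lost with spike-in scaling (0.58) and without permissive replicate 1 or nonpermissive replicate 1 (0.62 to 1.04 over all arrays left out). The fibroblast receptor Pdgfra read 4.0 and 3.1 at 33 °C and 7.6 and 4.4 at 39 °C, and Pdgfrb, Thy1, Fap and Twist1 were dim as well. The summed intensity of the 14 was 1756 and 1856 at 33 °C and 1781 and 1513 at 39 °C. Without Tagln, left out after its values were seen, it was 1504 and 1549 at 33 °C and 1773 and 1509 at 39 °C, and both ways the groups overlapped. Pdpn made up much of these sums, with 922.0 and 860.8 at 33 °C and 931.4 and 778.0 at 39 °C. The sums therefore say little about the dimmer markers. Tagln, one of the 14, read 252.2 and 306.8 at 33 °C and 7.9 and 4.1 at 39 °C, and the smooth muscle myosin Myh11, dim by its mean, read 14.8 and 23.5 at 33 °C and 132.0 and 111.7 at 39 °C. The part of these marker genes in the matrix results was not tested. All 5 endothelial markers with a probe set were dim, with sums of 99.6 and 105.8 at 33 °C and 200.0 and 116.9 at 39 °C. Of 8 leukocyte markers only Cd14 was above the limit, and it was not called. The sums over the 8 were 924.6 and 929.9 at 33 °C and 885.3 and 894.7 at 39 °C. Most of this was Cd14, with 803.9 and 823.1 at 33 °C and 636.4 and 750.4 at 39 °C.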

How the data were processed

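Labelled RNA of RTEC11 cells was measured on Affymetrix rat expression arrays, 1 per sample and 4 in all. The deposited values are linear intensities, 1 for each of 15923 probe sets and array. From the values, the authors' intensities had been scaled to a mean of about 500 on each array with 2% trimmed at each end. The sources used here do not give the summarising software. Sample titles gave the group and replicate number.

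Control probe sets (57) were left out, 16 was added, and the log2 values were quantile normalized, since array medians differed by 0.175 on that scale, above a limit of 0.1. Genes were named through GEO's platform annotation (12783 probe sets with 1 symbol, 312 with several, which were not used, and 2771 with none listed), of which 12748 matched RefSeq (GRCr8) by Entrez identifier, as did all 69 matrix genes. Each gene was represented by its brightest probe set. Dim genes, below the 40th percentile of probe set means, were left out, which left 7016. The temperatures were compared with limma 3.58.1 in R 4.3.3 (eBayes with an intensity trend, residual df 2, median prior df 9.23). Tests were two-sided, and p-values were Benjamini-Hochberg adjusted over all genes tested. The procedure was tested on simulated data in which far fewer genes changed than were called here, all of them clear of the dim limit. That test therefore says little about genes near the limit or about changes as widespread as these. Python 3.11.15 and matplotlib 3.10.9 made the figures. Precision is limited by the small number of arrays.

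The genes and lists were chosen with earlier results of these data known. The text names every matrix gene. It gives array values for genes with a log2 change of at least 1 in size (called, or dim), for tested genes with probe sets of opposite sign (ranges for dim ones) and for a fixed set of well-known genes, and others were added where useful. From each further list it names up to 3 called rises and 3 called falls. Alternatives tried were median centring, no normalization beyond the deposited scale, scaling to 24 poly-A spike-in probe sets, adding 1 or 64, no dim filter or the 60th percentile, averaging all probe sets of a gene, leaving out probe sets ending in _x_at or _s_at, a fit with the replicate number as a block, a fit with no intensity trend, and omitting each array in turn. Replicate 1 deviations of the temperatures correlated at 0.0068, so the numbers were not taken to pair the samples.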

Additional observations from a re-analysis of the deposited data

How the results depend on the processing

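The 17 matrix genes called higher became 12 to 18 over the 15 alternatives, always within 1.5 times of the main count (14 to 17 when 1 array was left out). The count called lower, 1, was 5 with arrays centred on their medians or scaled to the spike-in controls and 2 when 64 was added, with probe sets averaged per gene and with the replicate number as a block. It was 1 to 2 with 1 array left out. Collagens called lower, 0, became 2 under those 2 scalings, 1 under those other 3 settings and 0 to 1 with 1 array left out. Glycoproteins called lower, 0, became 1 under both scalings. Proteases and inhibitors called higher, 7, became 4 with spike-in scaling, with the 60th percentile for dim genes and with the mean of probe sets, and 4 to 7 with 1 array left out, 4 being the value without nonpermissive replicate 2. The median log2 change of the tested matrix genes, 0.74, was 0.82 on the deposited scale, 0.68 with median centring, 0.44 with spike-in scaling, 0.80 and 0.55 with 1 and 64 added, 0.088 with no filter on dim genes, 0.65 with the 60th percentile and 0.54 with the mean of probe sets. It ranged from 0.68 to 0.78 with 1 array left out. Without the filter the median covers all 69 genes, most of them dim. Timp2 turned to -0.037 with spike-in scaling. The replicate block added the Col5a1 call (-0.44, adjusted p 0.0194 by limma) and changed no other call among the matrix genes. The cause of the other differences was not tested. Dim genes are limited by signal near background, and no detection calls were used.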
